A study of Mus musculus with 12 samples.

Results

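C/D box small nucleolar RNAs (snoRNAs) were taken as all rows of the authors' RefSeq gene table whose symbol starts with Snord followed by a digit. They numbered 69 of 24197 rows, of which 66 had a level above 0 in at least 1 group and 43 had one in all 4 groups. The study compared males with females in liver RNA depleted of ribosomal RNA (rRNA), to find RefSeq genes and long noncoding RNAs specific to one sex. The mice were of the CD-1 strain, an outbred stock, untreated and intact, and 7 to 11 weeks old in every group. The 4 groups were total RNA of whole female liver, total RNA of whole male liver, RNA of nuclei purified from female liver and RNA of nuclei purified from male liver. Each group held 3 pools, each made of the RNA of 12 to 17 mice, so a library averages over many animals and over every cell type of the liver.

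C/D box snoRNAs are short stable RNAs of the nucleolus that carry the sequence motifs box C near the 5′ end and box D near the 3′ end. They bind the methyltransferase fibrillarin (Fbl) with Nop56, Nop58 and Snu13, and most of them pair with rRNA to direct methylation of the ribose at a chosen base. In mammals most are cut out of introns of host genes, many of which encode ribosomal proteins and other parts of the translation machinery.

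The sequences below are those of the members that carry the results: Snord17 and Snord104 for their level, Snord15a and Snord15b as a pair from one host gene, Snord33 and Snord83b for their values in males and females, Snord22 for its role in rRNA processing and the other snoRNAs of the Rpl13a introns for comparison with Snord33. They are transcripts of GENCODE M21, written 5′ to 3′, with capitals marking the core of box C (TGATGA within the first 20 bases) and box D (CTGA within the last 15 bases) where those letters were found.
Snord17: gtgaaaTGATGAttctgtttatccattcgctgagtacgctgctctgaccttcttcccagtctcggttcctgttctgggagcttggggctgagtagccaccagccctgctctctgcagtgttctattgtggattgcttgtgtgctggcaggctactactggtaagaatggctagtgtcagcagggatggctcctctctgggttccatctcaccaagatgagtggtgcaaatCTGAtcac
Snord104: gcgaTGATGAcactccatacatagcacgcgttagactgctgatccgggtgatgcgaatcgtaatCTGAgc
Snord15a: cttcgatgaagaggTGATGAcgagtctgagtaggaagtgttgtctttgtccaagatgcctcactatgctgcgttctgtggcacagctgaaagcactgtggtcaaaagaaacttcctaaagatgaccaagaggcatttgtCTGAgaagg
Snord15b: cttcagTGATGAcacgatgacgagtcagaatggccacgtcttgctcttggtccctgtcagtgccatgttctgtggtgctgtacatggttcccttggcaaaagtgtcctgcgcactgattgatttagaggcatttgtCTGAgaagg
Snord83b: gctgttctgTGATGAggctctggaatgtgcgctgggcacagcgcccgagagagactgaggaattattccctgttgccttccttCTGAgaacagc
Snord22: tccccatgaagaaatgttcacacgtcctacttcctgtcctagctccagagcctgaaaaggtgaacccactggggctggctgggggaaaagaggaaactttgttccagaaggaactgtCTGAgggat
Snord32a: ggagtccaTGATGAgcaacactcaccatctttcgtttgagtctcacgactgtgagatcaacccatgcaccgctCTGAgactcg
Snord33: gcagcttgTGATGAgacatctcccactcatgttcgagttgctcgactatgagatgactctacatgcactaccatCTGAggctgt
Snord34: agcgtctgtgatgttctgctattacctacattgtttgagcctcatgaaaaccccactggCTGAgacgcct
Snord35a: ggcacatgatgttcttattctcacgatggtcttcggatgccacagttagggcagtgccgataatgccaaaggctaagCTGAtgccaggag
On GRCm38, Snord17 lies at chr2:144265979-144266216 on the minus strand and Snord104 at chr11:106500993-106501062 on the plus strand. Snord15a lies at chr7:99482785-99482932 and Snord15b at chr7:99479563-99479707, both on the minus strand. Snord83b lies at chr15:80078498-80078591 on the minus strand and Snord22 at chr19:8725866-8725991 on the plus strand. The Rpl13a set, all on the minus strand of chromosome 7, has Snord32a at chr7:45127382-45127464, Snord33 at chr7:45126864-45126947, Snord34 at chr7:45126601-45126670 and Snord35a at chr7:45126346-45126435. In the authors' table, on mm9, the counted interval of Snord17 is chr2:144091718-144091938 and that of Snord15a is chr7:106631295-106631442.

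A GENCODE transcript was found for 68 of the 69 members. Of these, 61 held the box D letters and 43 the box C letters in the windows given above, read on the transcript's own strand. Among 42 H/ACA box snoRNA transcripts, the other large class of snoRNAs, 3 held CTGA and 0 held TGATGA in the same windows. Over all 5044 small RNA transcripts other than those with Snord names, 10.9% held CTGA and 5.29% held TGATGA. The gene models that the authors counted were often shorter than these transcripts. For 64 members whose RefSeq model on GRCm38 had the deposited length, the model had a median length of 68 bases against 78.5 for the transcript, and 54 models were the shorter of the pair. The counted model held the box D letters in 57 of the 57 that had them and the box C letters in 17 of 41, so that the missing bases lay mostly at the 5′ end. For Snord17 the counted model covered bases 15 to 235 of 238 and left out box C, which starts at base 7. Snord15a and Snord15b were counted whole and had the same base in 107 of 162 columns of their alignment, or 66.0%, so they are not near-identical copies.

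The deposited levels are group means in FPKM (fragments per kilobase of gene and per M mapped, where M stands for mega), and the mean of each member with reads could be split back into whole reads per library. Libraries held 11.3 to 24.4 M reads in total RNA and 20.2 to 22.7 M in nuclear RNA. Which recovered library is which labelled pool is not known, so libraries are numbered by size, the largest first. Members took 5073 of 250.649 M reads over the 12 libraries. Female total library 2 stood apart, with short rows at 2.53 times their average level over libraries, against 0.591 to 1.18 in the other 11. By lane, the nuclear pools were all in 4, the male total pools all in 3, and the female total pools divided, with 1 in lane 3 and 2 in lane 4. Transcripts known as nuclear were higher in nuclear RNA, with Malat1 at 737 FPKM in female nuclear and 201 in female total RNA. The liver transcript Alb, which encodes albumin, was at 238 FPKM in female nuclear and 5481 in female total RNA, and the liver markers Apoa1, Ttr, Serpina1a and Cyp2e1 were all present.

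Members were seen in nuclear RNA far more often than in total RNA. Above 0 were 66 of 69 in female nuclear, 64 in male nuclear, 57 in female total and 48 in male total RNA. Counting more than 3 reads over the 3 libraries of a group, the numbers were 55, 54, 27 and 13. The median level over all 69 was 2.87 FPKM in female nuclear and 2.22 in male nuclear RNA, and 0.511 in female total and 0.277 in male total RNA. Over all 24197 rows the medians were 0.133, 0.121, 0.104 and 0.0622 FPKM in the same order. The median member rested on 13 reads in female nuclear, 10 in male nuclear, 2 in female total and 1 in male total RNA, so the level of a typical member in total RNA is set by single reads. Without female total library 2, 39 members were above 0 in female total RNA, with a median of 0.218 FPKM over all 69. This count rests on fewer libraries and reads than the others, and the part of that in the drop was not tested. Snord116 and the related rows Snord116l1 and Snord116l2, brain snoRNAs of the imprinted Prader-Willi locus, had 0 reads in all 4 groups, which allows up to 3 counted reads per group. Snord116l1 and Snord116l2 have the same sequence, and each row has a deposited length of 900 bases against 90 for its model on GRCm38. A read of such repeated copies has no single place, so reads left uncounted for that reason are outside this limit. Snord64 of the same locus had 1, 0 and 1 reads in the female nuclear libraries, 2, 2 and 2 in the male nuclear libraries, 0, 0 and 0 in the female total libraries and 1, 0 and 1 in the male total libraries. These values are near the floor.

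Snord17, a guide for the large-subunit rRNA in human, was the most abundant member in every group. It had 397, 301 and 294 reads in the female nuclear libraries and 344, 440 and 304 in the male nuclear libraries. It had 78, 160 and 29 reads in the female total libraries and 64, 59 and 12 in the male total libraries. This 1 RNA made up 45.8% of all member reads in female nuclear, 51.8% in male nuclear, 51.6% in female total and 46.4% in male total RNA. Per length its level was 67.5 ± 9.98 FPKM in female nuclear and 75.6 ± 12.3 in male nuclear RNA, and 18.8 ± 14 in female total and 9.85 ± 4.38 in male total RNA (SD, n = 3). Without female total library 2 its mean in female total RNA was 11.0 FPKM. The next was Snord104, also a guide for large-subunit rRNA in human, at 20.1 ± 1.51 FPKM in female nuclear and 19.6 ± 7.63 in male nuclear RNA (SD, n = 3). In female total RNA it was at 5.20 ± 3.39 FPKM and in male total RNA at 3.37 ± 1.84 (SD, n = 3), and without library 2 its female total mean was 3.25 FPKM. The remaining members of the 10 highest by mean level were Snord2, Snord15b, Snord37, Snord45b, Snord45c, Snord47, Snord66 and Snord96a, all between 6.44 and 12.8 FPKM in both nuclear groups.

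The order of members was more alike between the sexes in nuclear RNA than in total RNA. Over the 66 members with reads, Spearman's rho of female on male levels was 0.82 in nuclear and 0.51 in total RNA. These are descriptions across members of shared libraries, and the lower value goes with the lower read numbers in total RNA, whose part in it was not tested. By rank, length had little relation to nuclear reads, with a rho of 0.080 over 65 single-locus members of 45 to 221 bases. This rho gives little weight to the few longest members, which had many nuclear reads over both sexes. Snord17, at 221 bases, had 2080, Snord15a, at 148, had 161, Snord15b, at 145, had 182 and Snord22, at 126, had 64. Over the 61 shorter members the rho was -0.10. The part of length in the high level of Snord17 was not tested.

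Members took a larger share of reads in every nuclear library than in any total library. Of the reads on the 1446 rows whose reads were recovered, mostly short genes, members took 6.36%, 5.32% and 5.61% in the female nuclear libraries and 5.66%, 6.14% and 5.92% in the male nuclear libraries. They took 1.44%, 1.64% and 1.29% in the female total libraries and 1.35%, 1.38% and 1.32% in the male total libraries. The lowest nuclear library thus lay above the highest total library, female total library 2 included. The same held for H/ACA box snoRNAs, which took 4.38% to 6.77% in the nuclear libraries and 1.04% to 1.26% in the total libraries. The group means were 5.76% ± 0.535 and 5.91% ± 0.242 in female and male nuclear RNA and 1.46% ± 0.177 and 1.35% ± 0.0278 in female and male total RNA (SD, n = 3). Without Snord17 the shares were 3.21% ± 0.215 and 2.95% ± 0.240 against 0.692% ± 0.126 and 0.774% ± 0.127, in the same order (SD, n = 3). Which female total libraries ran in lane 4 is not known, and in males lane and RNA fraction cannot be told apart.

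**Figure D1:**
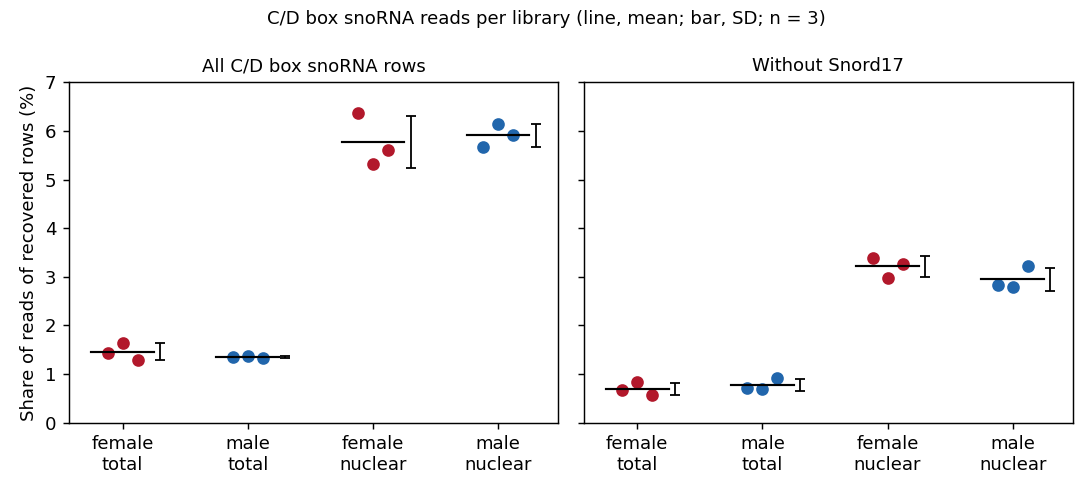
Share of the reads on recovered rows (%, y axis) that fell on C/D box snoRNA rows in each of 12 libraries, by group (x axis), for all members and without Snord17. Points are libraries, lines are means and bars are SD (n = 3), and the nuclear libraries, between 5.32% and 6.36%, all sit above the total libraries, between 1.29% and 1.64%.

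Per M reads, members summed to 32.6 in female nuclear and 8.22 in female total RNA, a 3.97-fold difference that became 6.90-fold without female total library 2. In males the sums were 32.3 and 5.16 per M, a 6.26-fold difference. Leaving out female total library 2 kept library 3, whose short rows were the lowest, at 0.591 times their average level, so folds without library 2 lean upward. On values scaled between libraries, the group means were 32.3 and 5.36 per M in female nuclear and total RNA and 32.5 and 5.04 in male nuclear and total RNA. By single rows, the level was higher in nuclear than in total RNA for 62 of 66 members above 0 in females and for 63 of 64 in males. Over all rows above 0 it was higher for 8420 of 17259 in females and 10560 of 17066 in males. Among H/ACA box snoRNAs it was higher for 35 of 35 in each sex. The exceptions were Snord11, Snord67, Snord85 and Snord88c in females and Snord35b in males, singled out after their values were seen. On the scale of log2((nuclear + 1)/(total + 1)), which understates differences of low rows, members at 1 FPKM or more had a median of 1.47 in females (53 rows) and 1.38 in males (48 rows), and over the same 53 rows it was 1.75 without female total library 2. The median over all such rows of the table was -0.32 and -0.10, and that of H/ACA box snoRNAs was 1.11 and 1.30. Since a row low in both fractions is left out, these medians describe the rows that passed and not all 69.

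A test over the recovered libraries was fitted with limma on log2(FPKM + 1) after scaling libraries to each other, with p-values adjusted by Benjamini-Hochberg over the 838 recovered rows with at least 10 reads. It covered 55 of the 69 members, and 14 members with fewer than 10 reads were not tested. Nuclear RNA was higher at an adjusted p under 0.05 for 43 of 69 members in females, against 43.4% of all rows tested, and for 38 of 69 in males, against 37.2% of all rows tested. The members tested were 55, so the counts stand at 43 and 38 of 55 over the same kind of rows as the percentages. Most members reached the minimum of 10 reads through nuclear RNA, so neither count is evidence about the members as a class. Without female total library 2 the number in females was 40. Lower in nuclear RNA were 0 members in either sex by limma, against 6.92% and 7.76% of all rows tested, and an unadjusted p under 0.05 was given to 46 of 55 members and 472 of 838 rows in females and to 41 of 55 members and 437 of 838 rows in males. On values scaled between libraries, the 3 nuclear libraries lay entirely above the 3 total libraries for 47 of 69 members in females, against 50.1% of rows, and for 37 of 69 in males, against 42.8%. Among the 55 members with at least 10 reads, the minimum behind these percentages, the counts were 46 and 37. Without scaling they were 36 of 69 in both sexes, against 35.1% and 43.4% of rows. The reverse held for 0 members in both sexes, against 10% and 10.1% of rows. Limma called 30 of 34 tested H/ACA box snoRNAs and 8 of 8 tested scaRNAs, the related RNAs of Cajal bodies, higher in female nuclear RNA.

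**Figure D2:**
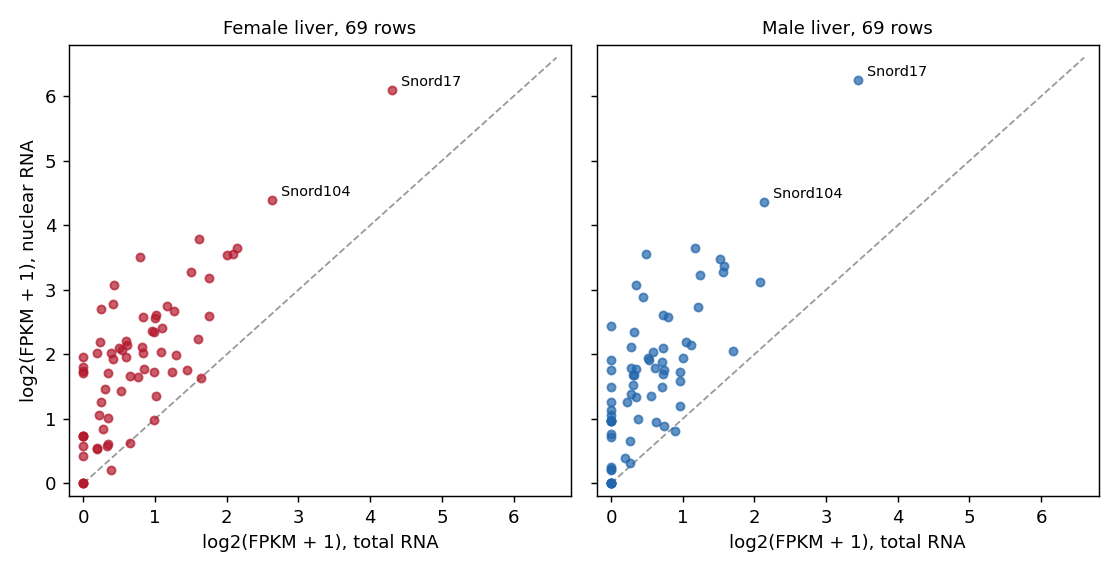
Level of each of 69 C/D box snoRNA rows in total RNA (x axis) and in nuclear RNA (y axis), both as log2(FPKM + 1) of the authors' group means, in female and male liver. Each point is 1 row and the dashed line marks equal levels, and nearly all points lie above it (62 of 66 rows above 0 in females and 63 of 64 in males). Over all rows of the authors' table above 0, not drawn, the counts were 8420 of 17259 in females and 10560 of 17066 in males.

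Among single members, Snord17 had a log2 difference of nuclear over total RNA of 2.29 ± 0.195 in females (SE, limma adjusted p = 1.84e-05) and 2.86 ± 0.195 in males (SE, limma adjusted p = 3.94e-06). Snord104 had 2.12 ± 0.391 (SE, limma adjusted p = 0.00186) and 2.21 ± 0.391 (SE, limma adjusted p = 0.00161). The Snord15 pair, U15 guides for large-subunit rRNA, had few reads in total RNA. Snord15a had 24, 21 and 13 reads in the female nuclear libraries and 40, 30 and 33 in the male nuclear libraries, but 1, 1 and 1 in the female total libraries and 2, 2 and 0 in the male total libraries. Snord15b had 37, 17 and 18 and then 43, 43 and 24 reads in the nuclear libraries of females and males, and 0, 2 and 1 and then 0, 2 and 5 in the total libraries. The nuclear libraries of both lay above all total libraries of the same sex. Snord2, also a guide for large-subunit rRNA in human, had 21, 10 and 21 reads in the female nuclear libraries and 4, 10 and 1 in the female total libraries, a 3.38-fold difference by mean FPKM that became 7.04-fold without female total library 2. Snord96a differed 3.33-fold in females, or 5.17-fold without that library, and 5.41-fold in males by mean FPKM. Snord57, Snord73a, Snord82 and Snord123 had reads in nuclear RNA and 0 in total RNA of both sexes, with limits of 3 reads per group.

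Snord22 (U22), which in frog oocytes is needed for processing of small-subunit rRNA, is the only member of the fixed list of processing snoRNAs with a row here, and the only 1 of the 8 listed snoRNAs of Snhg1 introns. It had 15, 13 and 13 reads in the female nuclear libraries, 8, 5 and 10 in the male nuclear libraries, 2, 5 and 1 in the female total libraries and 6, 1 and 1 in the male total libraries. Its male nuclear libraries lay below the female ones, but it was not called (adjusted p of 0.693 in the authors' deposited table and 0.413 by limma). On scaled values the same order held for 9 of 55 members with at least 10 reads, against 9.9% of rows. Snord47, a guide for large-subunit rRNA and the only listed Gas5 snoRNA with a row, had 19, 13 and 13 reads in the female nuclear libraries and 9, 11 and 15 in the male ones. In total RNA it had 0, 3 and 0 reads in females and 2, 2 and 1 in males.

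Of the 69 members, 63 lay within the interval of another, longer gene row on the same strand, and these rows, taken as hosts, numbered 44. Ribosomal protein genes were the hosts of 20 members in 12 genes, and 14 hosts held at least 2 members. In GENCODE M21, 35 of the 63 overlapped no exon of their host and 28 overlapped one in whole or in part, including exons of transcripts with a retained intron. Reads of a mature snoRNA and of unspliced host RNA across the same bases cannot be told apart in these counts. Members reached a higher FPKM than their host in 37 of 63 cases in female nuclear and 33 in male nuclear RNA, but in 7 and 9 cases in female and male total RNA.

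The counts on snoRNA rows and on host rows differed in how they were split between nuclear and total RNA. The part of unspliced host RNA in this was not tested. On the log2((nuclear + 1)/(total + 1)) scale, a member exceeded its host in 45 of 48 pairs in females, with a median difference of 2.25, and in 41 of 43 pairs in males, with a median difference of 1.75. Only pairs at 1 FPKM or more in a fraction entered, and members mostly reached that level through nuclear RNA, so these values favour the snoRNA and describe only the pairs that entered. With no minimum, the member had the higher value in 55 of 63 pairs in each sex, with median differences of 1.32 in females and 1.35 in males. The hosts themselves had medians of 0.045 and 0.12. The exceptions at 1 FPKM or more were Snord52, Snord85 and Snord99 in females and Snord22 and Snord99 in males.

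All 20 members in ribosomal protein genes had a host that was lower in nuclear RNA, with a median host log2 value of -2.28 in females and -2.06 in males. Summed over those 20 members, reads on the snoRNA rows were 6.38 per M in female nuclear against 0.922 in female total RNA, or 6.92-fold higher, and 7.48-fold higher in males. Without female total library 2 the female difference was 12.7-fold, resting on only 0.502 reads per M in total RNA. Over the 42 members in other hosts without Snord17, the median host value was 0.25 in females and 0.43 in males, and the snoRNA sums were 3.70-fold and 4.80-fold higher in nuclear RNA, with 6.92-fold in females without that library. The difference between these folds was not tested. Rps3, for example, was at 1.09 FPKM in female nuclear and 8.64 in female total RNA, while its intronic Snord15a was at 5.87 ± 1.57 in female nuclear and 0.327 ± 0.0473 in female total RNA (SD, n = 3).

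**Figure D3:**
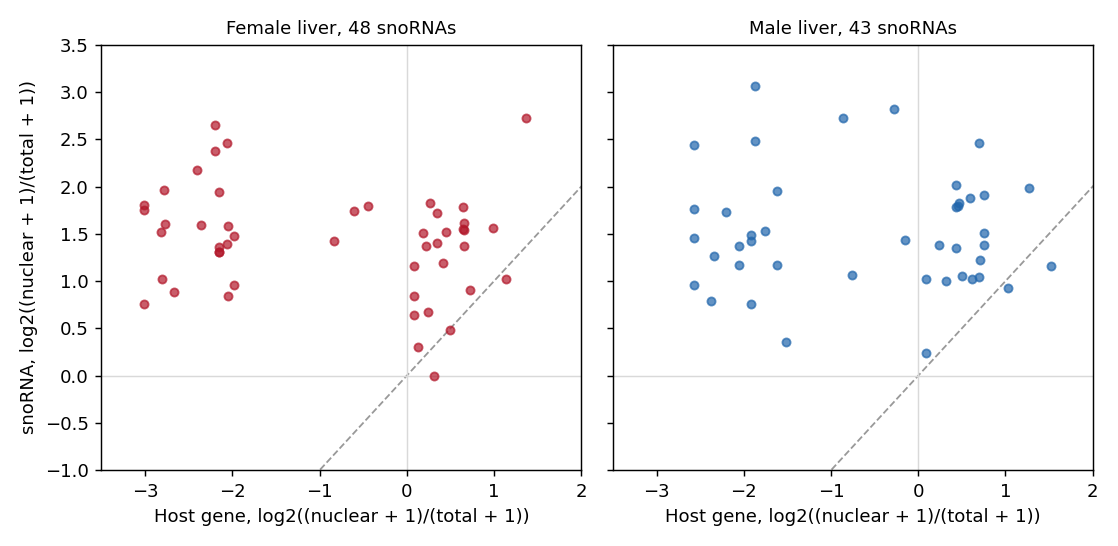
Nuclear over total RNA for each snoRNA (y axis) against the same value of its host gene (x axis), both as log2((nuclear + 1)/(total + 1)) of FPKM, for pairs at 1 FPKM or more. Each point is 1 snoRNA, the dashed line marks equal values, and 45 of 48 snoRNAs in females and 41 of 43 in males lie above it.

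SnoRNAs of one host were not always present at like levels. The 4 snoRNAs of Rpl13a introns, which in mouse are also known for a role in the response to lipid overload, had 26 to 33 nuclear reads each over both sexes. Both snoRNAs of Rps3 were high, with 161 nuclear reads for Snord15a and 182 for Snord15b. In Gnb2l1, now Rack1, Snord96a had 105 nuclear reads and Snord95 had 26. Across the 63 members with a host, Spearman's rho between snoRNA and host FPKM was 0.56 in female nuclear and 0.45 in male nuclear RNA, and 0.16 and 0.25 in female and male total RNA. Both values of a pair come from the same libraries, and members of one host share its value.

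Few members were called different between the sexes. The median member had 13 and 10 reads in female and male nuclear RNA and 2 and 1 in female and male total RNA. At such numbers a missing call does not show equal levels. Of 66 members above 0 in nuclear RNA, 1 was called at an adjusted p under 0.05 in the authors' deposited table, against 5.8% of all rows. It was higher in males, as were 2.82% of all rows, and 0 members were higher in females, against 2.98% of all rows. In total RNA the authors' deposited table called 0 of 62, against 4.46% of all rows (2.1% higher in males and 2.36% higher in females), and the smallest adjusted p was 0.470. An adjusted p of 1 was given to 50 members in nuclear and 55 in total RNA by the authors' deposited table. In nuclear RNA 24 members were higher in males and 42 in females, against 8795 and 8672 of all rows and 22 and 13 of H/ACA box snoRNAs. In total RNA 27 members were higher in males and 35 in females, against 7566 and 8838 of all rows and 15 and 19 of H/ACA box snoRNAs. The median log2 of the male over female ratio of members in the authors' deposited table was -0.25 in nuclear and -0.17 in total RNA. Over all rows the median log2 of the same deposited ratio was 0.0044 in nuclear and -0.033 in total RNA. On the quotient of the group means, without scaling between libraries, the member medians were -0.38 and -0.71. Less the median of that quotient over all rows, they were -0.27 and -0.19.

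The called member was Snord15a, with a male over female ratio of 1.97 and an adjusted p of 0.00613 in the authors' deposited table for nuclear RNA. Its male nuclear libraries stood at 12.0, 9.14 and 11.0 FPKM and its female nuclear libraries at 7.13, 6.38 and 4.11 FPKM, so the groups did not overlap. In limma its log2 difference was 0.81 ± 0.274 (SE) with an adjusted p of 0.271, so this call depends on the method. Its neighbour Snord15b had a ratio of 1.69 and an adjusted p of 0.206 in the authors' deposited table. Its male nuclear libraries stood at 13.1, 13.4 and 8.19 FPKM and its female ones at 11.2, 5.27 and 5.81 FPKM, and these overlapped.

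Limma called 0 members higher and 2 lower in male nuclear RNA, against 0.239% and 0.955% of all rows tested, and 0 of 55 in total RNA. An unadjusted p under 0.05 was given to 14 of 55 members and 100 of 838 rows in nuclear RNA and to 8 of 55 members and 42 of 838 rows in total RNA. The authors' deposited table did not call either of the 2. Snord33, a guide for small-subunit rRNA, had 5, 8 and 9 reads in the female nuclear libraries and 1, 2 and 2 in the male ones, with a log2 difference of -1.35 ± 0.233 (SE, limma adjusted p = 0.0186). In the authors' deposited table its adjusted p in nuclear RNA was 0.0629. In total RNA it had 1, 3 and 1 reads in females and 0, 0 and 0 in males, too few for a fold. Snord83b of the Rpl3 gene, named because limma called it, had 7, 10 and 11 reads in the female nuclear libraries and 3, 3 and 3 in the male ones, with a log2 difference of -1.17 ± 0.210 (SE, limma adjusted p = 0.0220). The authors' deposited table gave it an adjusted p of 0.133. Both calls were lost when female nuclear library 2 or 3 or male nuclear library 1 or 2 was left out (limma adjusted p from 0.0529 to 0.0791), and without scaling or with a pseudocount of 0.1.

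The other snoRNAs of Rpl13a had female and male nuclear libraries that overlapped. Snord32a, a guide for both rRNA subunits, had 8, 4 and 6 reads in the female and 6, 3 and 4 in the male nuclear libraries. Snord34 had 10, 5 and 4 and then 4, 5 and 5. Snord35a had 12, 2 and 7 and then 2, 2 and 1. The host Rpl13a was at 3.44 FPKM in female nuclear and 3.03 in male nuclear RNA.

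**Figure D4:**
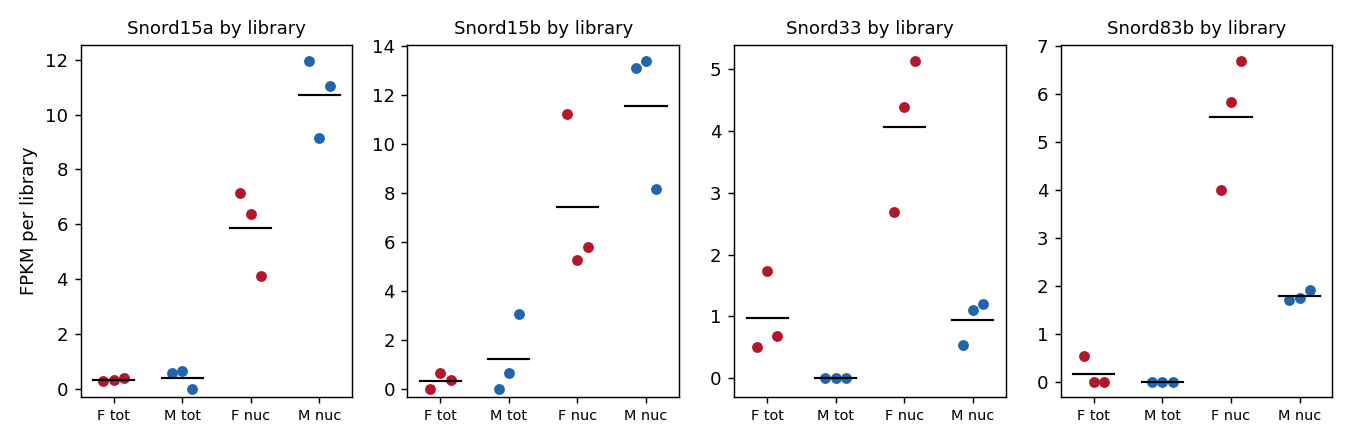
FPKM per recovered library (y axis) of 4 members in female (F) and male (M) total (tot) and nuclear (nuc) RNA (x axis). Points are libraries and lines are means (n = 3), and in nuclear RNA the male libraries lie above the female ones for Snord15a and below them for Snord33 and Snord83b, while those of Snord15b overlap.

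Over all 69 members, on values scaled between libraries, the male nuclear libraries lay entirely above the female ones for 4, against 5.73% of rows, and entirely below for 10, against 9.9% of rows. The 4 were Snord15a, Snord42a, Snord64 and Snord69, listed after their values were seen, and Snord64 rests on 8 nuclear reads. Of the 55 members with at least 10 reads, as the rows behind the percentages have, 4 lay above and 9 below. In total RNA, on scaled values, the counts were 2 above, Snord35a and Snord47, against 4.06% of rows, and 6 below, against 4.77% of rows, all of them among the 55. Without scaling the libraries of Snord35a and Snord47 overlapped, and the counts in total RNA were 0 above and 5 below. Snord17 was among the 6 but not among the 5, and for total RNA the authors' deposited table gave it an adjusted p of 0.470. The difference of the sex effect between nuclear and total RNA was called by limma for 0 members, against 0% of all rows tested in either direction, and 7 of 55 members and 52 of 838 rows had an unadjusted p under 0.05. In total RNA sex and lane cannot be told apart for the males, all in lane 3, whereas both sexes of the nuclear comparison were in lane 4.

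The genes of the proteins that bind or build these particles were present. None was called in nuclear or total RNA by the authors' deposited table, neither of the 4 core protein genes (Fbl, Nop56, Nop58 and Nhp2l1, now Snu13) nor of the 10 assembly and maturation factors. Fbl, the methyltransferase, was at 1.16 FPKM in female nuclear, 0.825 in male nuclear, 2.02 in female total and 1.64 in male total RNA. Nop56 and Nop58 each also host 2 of the snoRNAs. Their log2((nuclear + 1)/(total + 1)) values were 0.24 and 0.083 in females, and those of Fbl and Nhp2l1 were -0.48 and -1.05. All 4 lay below 1.47, the female median over only those 53 snoRNA rows that passed the 1 FPKM minimum. SnoRNA rows passed it mostly through nuclear RNA, so the comparison favours the snoRNAs and does not cover all 69. In bulk RNA of this kind, fewer cells that hold a snoRNA and less of it per cell cannot be told apart.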

How the data were processed

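Mouse liver RNA was sequenced after partial rRNA depletion with a kit that keeps strand, per the labels' protocols. The submitters' processing notes name TopHat2, featureCounts, edgeR and the build mm9, and their versions and the strand setting of the counting are not stated in the sources used here. The authors deposited, per the file headers, mean FPKM per group, a male over female ratio and an adjusted p-value. The median of the log2 deposited ratio less the log2 quotient of means was 0.12 in nuclear and 0.48 in total RNA. Single rows differed from these medians, some with a deposited ratio below the quotient.

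Each mean was solved for whole reads in 3 libraries (within 1e-08 reads), taking starts as counted from 0. This gave single solutions for 1446 of 10754 rows tried, against 5 with lengths 1 base longer, and for all 66 members with reads. Limma 3.58.1 (R 4.3.3, trended variance) was chosen after seeing the data. Libraries were scaled by the median over 187 recovered rows with reads in every library that were not snoRNAs, scaRNAs or microRNAs. Nuclear over total differences by limma are relative to those rows. The adjustment covers the 838 rows tested and not the authors' whole table. The code was tested on simulated data. The plan allowed a count model or limma if values per pool were found. Limma was taken because the deposited unit is FPKM, and no count model was fitted to the recovered reads. Python 3.11.15, numpy 2.4.6, pandas 2.3.3, scipy 1.17.1 and matplotlib 3.10.9 were used. Coordinates and sequences are GRCm38 (GENCODE M21, RefSeq).

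Members, lists and tests were chosen with earlier results of these data known. Named members were those called, the 10 highest, the 5 highest and lowest nuclear over total values among 9 eligible, and listed classes. The number of per-sample columns left unused was 0. SDs measure the spread between 3 pools. Floors and reads cover counting error only.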

Additional observations from a re-analysis of the deposited data

How the results depend on the processing

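No paired analysis was possible because the recovered libraries carry no pool number, and a labelled block could not be assigned to them. The count of members higher in nuclear RNA by limma ranged from 36 to 44 in females and from 30 to 39 in males when each library was left out, and from 35 to 42 and from 33 to 36 under other scaling, pseudocounts and read minimums. The 2 members called lower in male nuclear RNA became 0 to 3 when a library was left out, 0 without scaling, 0 with a pseudocount of 0.1, 4 with a pseudocount of 10 and 4 with a minimum of 1 read. With a pseudocount of 10, 1 member was called higher in male nuclear RNA, and with one of 0.1, 2 were called lower in male total RNA. Without scaling between libraries, 0 members in place of 2 had male total libraries entirely above the female ones. At a threshold of 0.1 the authors' deposited table called 2 members in nuclear RNA. Above 3 reads, 27 members remained in female total and 13 in male total RNA, in place of 57 and 48.

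The median log2 nuclear over total value, less that of all rows, was 1.80 in females and 1.48 in males. It was 2.61 and 2.66 with a pseudocount of 0.1, 0.41 and 0.31 with one of 10, 3.61 and 4.09 for rows at 10 FPKM or more, 1.34 and 1.12 for rows above 0, 1.47 and 1.38 without centring, and 0.36 and 0.082 when centred on H/ACA box snoRNAs. The median log2 male over female value in total RNA was -0.71 on the unscaled quotient of means and -0.19 on that quotient less the median of all rows, and the cause was not tested. The median difference from the host was the same with the shortest containing gene and with rows of either strand allowed. With the strand required to match, 1 member had more than 1 containing row. Depth limits total RNA, where the median member had 1 or 2 reads per group.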
